A study of Mus musculus with 4 samples.

Results

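PT-S1-S2-1 was 1 of 23 clusters into which the study grouped nuclei of mouse kidney cortex after single-nucleus RNA sequencing. It carries cluster number 1, and its name places it in the first and second segments of the proximal tubule. Its members here were 4 of the 92 cluster-by-mouse means in the deposited table, 1 for each of 4 male mice of mixed strain. The Control mouse carried TRE-hKLF6, a human KLF6 gene under a tetracycline-responsive promoter, and was uninjured. The Control_AAI mouse had the same genotype and received aristolochic acid I (AAI), a plant toxin that enters proximal tubule cells and forms DNA adducts. The OE mouse carried CAG-rtTA together with TRE-hKLF6 and was uninjured, and the OE_AAI mouse had this genotype and received AAI. By the study's methods all mice ate doxycycline, which lets rtTA switch on the human gene, for 1 week, and AAI was given as 1 injection of 2 mg/kg with kidneys taken 24 hours later. The methods describe the solvent alone for control injections, while the labels give no treatment for the uninjured mice. The CAG promoter drives rtTA throughout the body, so the human gene was not limited to these nuclei, and the control mice also carried the responder transgene and ate the drug.

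Each condition was 1 mouse, so no test, standard deviation or interval could be given, and every difference below describes these libraries and not the conditions. Values are mean normalized expression, which is counts per 10000 counts of a nucleus averaged over the nuclei of a cluster in a mouse. The table gives neither the number of nuclei nor their counts, so the depth behind a value is unknown. A difference is that of log2(value + 1), which understates the change of genes with low values. A gene was examined in a comparison when the larger value of each pair was at least 0.5, and it was called higher or lower when the difference was at least 0.2 in 1 direction in every mouse or every pair compared. Because the filter reads the larger value, a gene below 0.5 on one side of a comparison could be called only towards the other. Clusters had been formed from the same expression values, so a difference between clusters is not independent of how the clusters were made.

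The proximal tubule takes back most of the glucose, amino acids, phosphate and bicarbonate that the glomerulus filters. Its early segments carry high-capacity transporters in the apical brush border and the basolateral membrane, an endocytic apparatus for filtered protein, and enzymes that make glucose. The late segment is richer in high-affinity carriers and in drug and steroid metabolism. The transcription factors HNF1 and HNF4 are known to maintain much of this programme. Organic anion transporters of the tubule take up AAI, which makes the proximal tubule the main target of this toxin.

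The 2 marker genes of the label were high in this cluster. Slc5a12 (chromosome 2, 110597298 to 110647779, plus strand, GRCm38), which encodes a sodium-coupled carrier for lactate, was at 51.4 in the Control, 69.0 in the Control_AAI, 55.8 in the OE and 44.5 in the OE_AAI mouse. It was the highest of 23 clusters in 3 of the 4 mice. The exception was the OE_AAI mouse, in which PT-S1-S2-2 was at 45.3. Averaged over the 4 mice, the order was PT-S1-S2-1 at 55.2, PT-S1-S2-2 at 47.1, EC-1 at 17.3, DCT_CNT at 14.4 and PT-S3-1 at 9.48, and the ranges of the first 2 clusters over mice overlapped. EC-1 and DCT_CNT, named for endothelial and distal cells, thus also held Slc5a12 RNA, at 13.5 to 24.1 and 12.1 to 16.6, and the remaining 18 clusters had means below 9.48. Slc5a2 (chromosome 7, 128265657 to 128272430, plus strand), which encodes the glucose carrier SGLT2, was at 9.65, 6.25, 7.02 and 6.32 in the same order of mice. It was highest in this cluster in 4 of 4 mice, and its range did not overlap that of PT-S1-S2-2, which ran from 3.44 to 4.92. Both markers of the label were thus highest in the early tubule clusters.

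**Figure D1:**
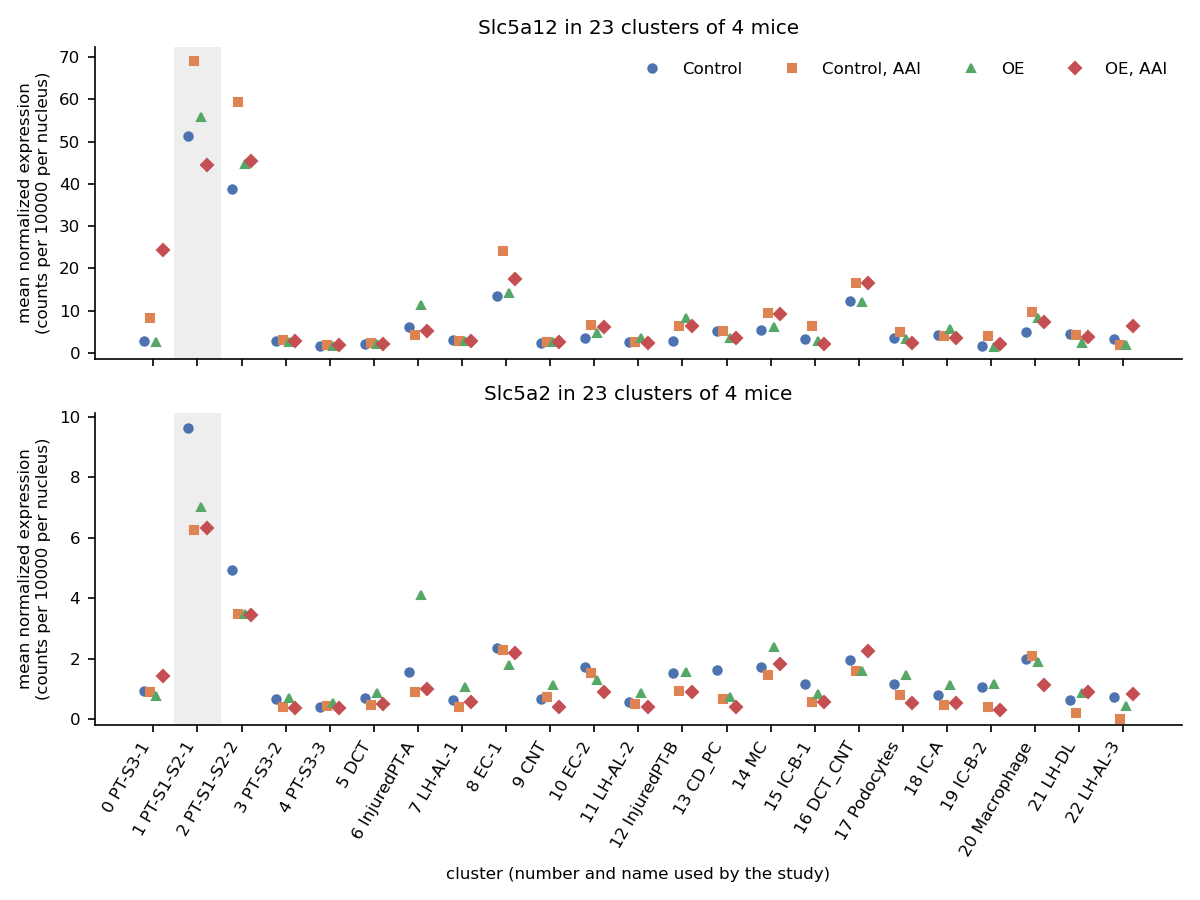
Mean normalized expression (counts per 10000 per nucleus, linear axis) of Slc5a12 and Slc5a2 in each of 23 clusters, 1 point for each of 4 mice, with PT-S1-S2-1 shaded. Slc5a2 lay between 6.25 and 9.65 in PT-S1-S2-1, above every other cluster in each mouse, while Slc5a12 was shared with PT-S1-S2-2.

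Markers of other cell types were low in PT-S1-S2-1. The summed level of 9 endothelial markers was 1.83 to 2.46 over the 4 mice, against 128 to 137 in the cluster where that list was highest. The 8 intercalated cell markers summed to 0.63 to 0.784, the 12 macrophage and lymphocyte markers to 0.315 to 0.855 and the 9 mesangial and stromal markers to 0.144 to 0.233. Sums were larger for 8 podocyte markers, 20.8 to 27.6 against 591 to 932 at their highest, and for 8 thick ascending limb markers, 13.2 to 16.3 against 314 to 391. Of the 9 lists of cell types outside the proximal tubule, the descending limb list was the one with a member at 0 in all 4 mice, Slc14a2. The 13 late proximal tubule markers summed to 10.5 to 13 here and to 113 to 144 in their highest cluster. Doublet removal was not described for these nuclei, and what free RNA adds to such levels was not tested.

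Against the mean of the other 22 clusters, 588 of 4026 genes were higher in all 4 mice (14.6%) and 662 were lower (16.4%). All 14 early tubule markers were higher, with medians of 1.83, 1.95, 1.61 and 1.89 in the Control, Control_AAI, OE and OE_AAI mice, beside -0.04, -0.05, -0.000667 and -0.04 over all genes examined. Of 10 late tubule markers examined, 7 were lower and none was higher. Ranked by the smallest difference among the 4 mice, the first gene was Nox4, which encodes an NADPH oxidase that makes hydrogen peroxide, at 2.44, 2.61, 2.41 and 2.46. Next came Slc5a12 at 2.92, 2.86, 2.87 and 2.34, the collagen gene Col27a1, and Gldc, which encodes the decarboxylase of the glycine cleavage system. Adra1a, the alpha-1A adrenergic receptor, followed at 1.99 to 2.12, ahead of Slc7a7, Slc7a8, Auts2, Slc5a2 and Nhs. These leading genes thus joined an oxidase, a receptor and a collagen to the transporters that define the early tubule.

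Few genes peaked in this cluster alone. Of 3274 genes at 0.5 or more in all 4 of its columns, 72 were higher in PT-S1-S2-1 than in each of the other 22 clusters in every mouse. Adra1a stood furthest from its next cluster, by at least 0.81 in each mouse, followed by Slc7a8 at 0.76, Slc16a10 at 0.74, Nox4 at 0.67, Col27a1 at 0.66 and Slc5a2 at 0.65. Chrna4, a nicotinic acetylcholine receptor subunit, was next at 0.58. When PT-S1-S2-2 was allowed to share first place, the count rose to 110.

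Of 16 amino acid transporters examined, 12 were higher than in the other clusters and 2 lower. The counts were 8 higher and 3 lower of 17 organic anion and cation transporters, and 6 higher and 2 lower of 11 monocarboxylate and anion cotransporters. Slc7a7 and Slc7a8, light chains of basolateral exchangers for cationic and neutral amino acids, were at 12.9, 11.6, 8.84 and 13.3 and at 8.98, 7.08, 6.94 and 7.08 in PT-S1-S2-1. Slc6a19, the apical carrier of neutral amino acids, was higher by 1.35 to 1.58 and Slc16a10, a carrier of aromatic amino acids, by 1.17 to 1.81. The 2 that were lower, Slc7a13 and Slc6a18, belong to the late segment. Slc7a13 was at 1.63 to 2.26, and ranked between 13 and 20 of 23 clusters. All 3 sugar transporters examined, Slc5a2, Slc2a2 and Slc5a11, were higher, though Slc5a11 had a median difference of -0.02 against the other 4 normal proximal tubule clusters.

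Of 11 genes of phosphate, vitamin D and parathyroid hormone handling, 6 were higher and 5 were not called. Slc34a1, the main sodium-phosphate cotransporter of the brush border, was at 79.5, 54.9, 66.6 and 58.8 and was highest in this cluster in all 4 mice. Its relative Slc34a3 was higher by 0.88 to 1.17, and Pdzk1, a scaffold for apical transporters, by 0.82 to 1.44. Of 11 genes of the endocytic receptor apparatus, 6 were higher and 5 were not called. Dab2, an adaptor of endocytosis, was higher by 1.40 to 1.86, and the receptors Cubn and Lrp2 by 1.02 to 1.37 and 0.72 to 1.11. Against the mean of the other 4 normal proximal tubule clusters Lrp2 had a median difference of -0.26, so it was higher than in the kidney at large and not than in its own tubule. Of 15 genes for sodium, bicarbonate and water transport, 7 were higher, led by the bicarbonate exporter Slc4a4 at 1.63 to 2.22, and the potassium channel gene Kcnq1 was lower, with differences of -2.01 to -1.61.

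Metabolic and regulatory lists were mixed. Of 18 genes of gluconeogenesis and fructose metabolism, 8 were higher, among them G6pc, the last enzyme of glucose production, at 1.21 to 1.57 and Fbp1 at 0.57 to 1.20. Among 25 genes of fatty acid oxidation, 4 were higher and 2 lower, and none of 20 genes of branched-chain amino acid breakdown was higher. Transcription factors higher here included Bnc2 at 1.44 to 1.94, the fatty acid receptor Ppara at 1.30 to 1.95, the bile acid receptor Nr1h4 and Hnf4a, the last at 0.66 to 0.77. Sim1, Nr3c2, Esrrb and Tfcp2l1 were lower than the mean of all other clusters, but against the mean of the other 4 normal proximal tubule clusters the median difference was 0.60 for Nr3c2, 0.63 for Tfcp2l1 and 0.10 for Esrrb.

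**Figure D2:**
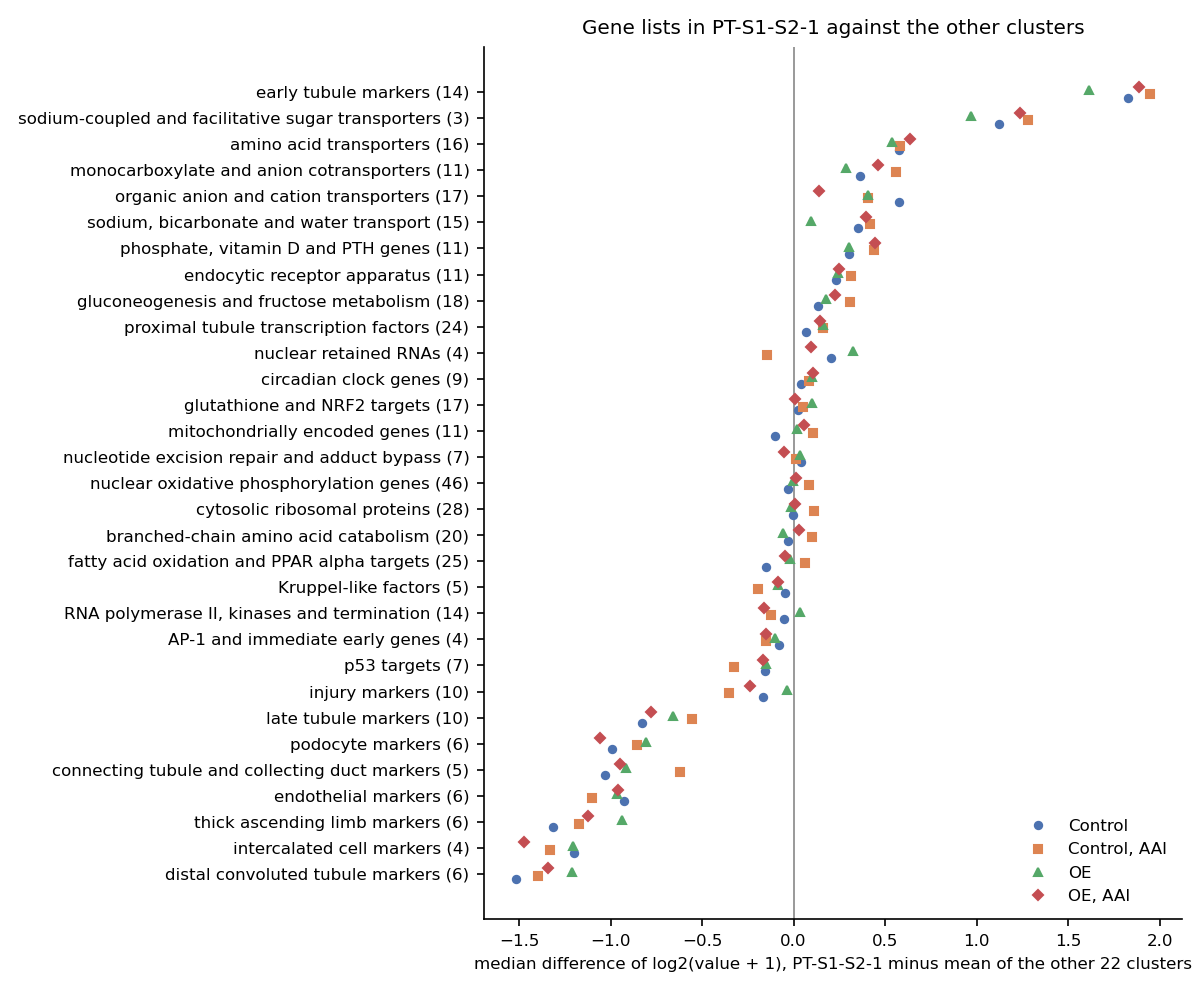
Median difference of log2(value + 1) between PT-S1-S2-1 and the mean of the other 22 clusters for each gene list with at least 3 genes examined (number in brackets), 1 point for each mouse. Early tubule markers lay between 1.61 and 1.95 and markers of other cell types lay below 0 in each mouse.

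Promoter sequences of early markers are shown because HNF1 and HNF4 are the best-known regulators of these genes. Windows of 250 bases before to 50 bases after annotated starts came from RefSeq (GRCm38.p6), and 12 of the 14 early markers had an entry. They were searched on both strands for GTTAAT, a half-site of the HNF1 motif, and for CAAAGTC, the core of the HNF4 motif. A match of one is never a match of the other. Each string was found in the same 3 of the 12 markers, Alpl, Slc34a1 and Slc7a7, and the rest held neither. Counted by gene, the shares over all examined genes with an entry were 6.33% and 5.06%. The windows shown were thus picked for their matches. Slc34a1 held both in 1 window, and Slc7a7 and Alpl held 1 match in each of 2 windows, the HNF4 core at the outer start and the HNF1 half-site at the inner start. The windows below hold matches in capitals, written 5′ to 3′ on the gene's strand, for Slc34a1 (chr13:55399398-55399697, plus strand), the inner start of Slc7a7 (chr14:54409423-54409722, minus strand) and the inner start of Alpl (chr4:137766426-137766725, minus strand).
Slc34a1: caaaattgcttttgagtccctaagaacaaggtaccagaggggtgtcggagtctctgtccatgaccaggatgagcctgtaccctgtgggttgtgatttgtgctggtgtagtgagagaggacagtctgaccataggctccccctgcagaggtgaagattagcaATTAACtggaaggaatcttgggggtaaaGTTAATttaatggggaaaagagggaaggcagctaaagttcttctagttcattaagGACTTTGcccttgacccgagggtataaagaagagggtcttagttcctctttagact
Slc7a7: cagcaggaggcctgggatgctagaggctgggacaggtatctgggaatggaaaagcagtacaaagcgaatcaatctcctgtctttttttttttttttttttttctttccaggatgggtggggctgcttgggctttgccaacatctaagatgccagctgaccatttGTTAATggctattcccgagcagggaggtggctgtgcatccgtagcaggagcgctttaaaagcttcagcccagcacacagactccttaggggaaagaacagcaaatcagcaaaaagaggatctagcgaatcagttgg
Alpl: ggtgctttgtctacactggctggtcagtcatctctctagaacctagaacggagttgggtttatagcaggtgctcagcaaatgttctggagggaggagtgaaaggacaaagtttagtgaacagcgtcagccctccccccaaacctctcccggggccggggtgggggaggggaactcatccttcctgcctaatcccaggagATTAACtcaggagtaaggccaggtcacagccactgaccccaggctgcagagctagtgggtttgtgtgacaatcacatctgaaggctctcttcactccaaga

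The Slc34a1 window held 3 matches, with first bases at positions -89 and -61 for the HNF1 half-site and -6 for the HNF4 core, counted from the annotated start. The Slc7a7 and Alpl windows shown held 1 HNF1 half-site each, at -86 and -51. Over all 32851 windows, 7.10% held GTTAAT, compared with 8.24% of the 619 windows of genes higher in PT-S1-S2-1 and 5.65% of the 726 windows of genes lower there. CAAAGTC was in 4.44% of all windows, 5.65% of those of higher genes and 4.13% of those of lower genes. Counted by gene, GTTAAT was in 6.33% of examined genes with an entry, 10.9% of higher genes and 7.89% of lower genes. CAAAGTC was in 5.06%, 7.35% and 4.86% of the same sets. By gene, the lower genes thus held GTTAAT more often than the examined genes. These shares describe short letter strings, and no binding was measured.

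Against PT-S1-S2-2, the other early proximal tubule cluster, 144 of 3509 genes were higher in all 4 mice (4.1%) and 140 were lower (3.99%). Without the OE_AAI mouse the first count was 220, though leaving out a mouse can only raise such a count. Some basolateral carriers for amino acids and 6 of 14 early markers were higher in PT-S1-S2-1, and several organic anion transporters and the factor Hnf4g were lower. Epb41l3, which encodes a membrane-cytoskeleton adaptor, led the higher genes at 6.04, 4.91, 4.78 and 6.07 in PT-S1-S2-1 and 1.39, 1.30, 1.19 and 2.43 in PT-S1-S2-2. Acss1, a mitochondrial acetate-activating enzyme, was higher by 0.95 to 1.23 and the long noncoding RNA Snhg11 by 0.85 to 1.19. Agmo, Pip5k1b, the collagen gene Col8a1 and 4921539H07Rik completed the 10 leading genes with Slc16a10, Slc7a8 and Adra1a. Of these, Col8a1 had the lowest level in PT-S1-S2-2, at 0.0832 to 0.356 against 0.807 to 1.72.

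Of the other 8 early markers, 1 was lower and 7 were not called. Slc7a8 differed most, at 1.58, 0.98, 1.35 and 0.76, and Slc5a2 differed by 0.70 to 0.85. Lrp2, the receptor megalin, was the one that was lower, at 19, 15.3, 11.7 and 15.9 against 24.8, 20.6, 15 and 20.2. Slc5a12 was called in neither direction. Of 16 amino acid transporters, Slc16a10, Slc7a8, Slc43a2 and Slc7a7 were higher and none was lower, and the 4 are known as carriers of the basolateral membrane, where amino acids leave the cell. Slc34a3 was higher by 0.28 to 0.83, and Fxyd2 and Slc4a4 were each higher by 0.27 to 0.46.

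Organic anion and cation transporters went the other way, with 7 of 17 lower and 1 higher. Differences were -1.40 to -1.04 for Slco1a6, -1.24 to -0.85 for Slc22a28 and -1.0 to -0.84 for Slc22a30, while Slc22a23 was higher by 0.45 to 0.59. Slc22a6, the organic anion transporter OAT1, was at 1.15 to 1.75 against 1.78 to 2.39. Slc13a3, the basolateral dicarboxylate carrier that supplies exchange for organic anions, was at 2.17, 1.69, 1.74 and 0.79 against 5.23, 5.62, 5.33 and 3.84. Its ranges in the 2 clusters did not overlap. Among 27 genes of fatty acid oxidation 6 were lower, among them Cyp4a12a and Acsm1, and 1, the coactivator gene Ppargc1a, was higher.

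The transcription factor Hnf4g was at 1.51, 2.30, 1.64 and 1.38 in PT-S1-S2-1 and at 4.13, 5.33, 3.76 and 3.54 in PT-S1-S2-2, while Hnf4a was called in neither direction. Nr1h4 differed by -0.45 to -0.23 and the repressor Zbtb20 by -0.81 to -0.71. The largest difference downward was in Erc2, a scaffold of the presynaptic active zone, which was at 1.47, 0.737, 1.20 and 0.267 against 8.73, 7.16, 6.90 and 1.80. Gpx3, the secreted glutathione peroxidase, was higher by 0.59 to 0.90.

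Other quantities moved with this contrast. Mitochondrially encoded genes had medians of 0.38, 0.31, 0.40 and 0.16, with 4 of 11 called higher. Markers of distal segments were slightly higher in PT-S1-S2-1, with 3 of 4 thick ascending limb markers called and sums of 13.2 to 16.3 against 10.4 to 12.2, and the podocyte markers summed to 20.8 to 27.6 against 15.2 to 17.6. The endothelial sums were 1.83 to 2.46 against 1.00 to 1.63. Their part in the differences above was not tested.

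**Figure D3:**
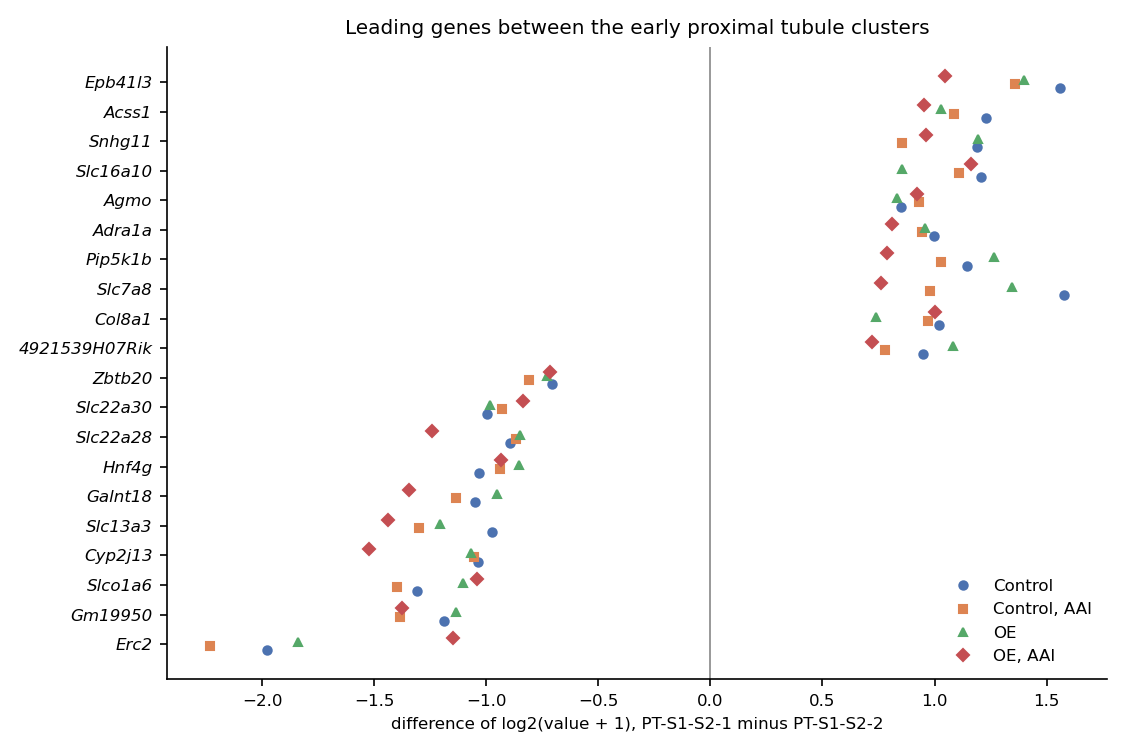
Difference of log2(value + 1) between PT-S1-S2-1 and PT-S1-S2-2 for the 10 genes with the largest differences held in all 4 mice in each direction, 1 point for each mouse. Epb41l3 lay between 1.05 and 1.56 and Erc2 between -2.23 and -1.15.

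To describe the nuclei grouped as PT-S1-S2-1 after AAI, the mouse with AAI was set against the uninjured mouse of its genotype. The study placed injured proximal tubule nuclei in separate clusters, InjuredPT-A and InjuredPT-B, which it saw almost only in mice with AAI. Nuclei grouped there are not part of the differences below. These differences thus describe nuclei that kept the profile of this cluster, and not the whole response of the early tubule. In the control genotype 560 of 4085 genes were higher with AAI (13.7%) and 512 lower (12.5%), and in the OE genotype 706 of 4165 were higher (16.95%) and 725 lower (17.4%). In both genotypes together 197 of 3873 genes were higher (5.09%) and 175 lower (4.52%). The genes higher in both included some p53 targets, immediate early genes and clock output genes. Several of these p53 targets and immediate early genes passed the filter through the mice with AAI in at least 1 genotype. The genes lower in both included some mitochondrially encoded, glutathione and organic anion transport genes.

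Of 49 p53 targets with a value, 10 were examined in both genotypes and 6 of them were higher. Among these 6, Ccng1, Trp53inp1, Polk and Gdf15 were below 0.5 without AAI in at least 1 genotype and so passed the filter through the mice with AAI, while Mdm2 and Dglucy were above 0.5 in all 4 mice. Over all 49 members the median difference was 0.05 in the control and 0.08 in the OE genotype. In the control genotype alone 10 were examined, with a median of 0.37, inside the range of the other 22 clusters, -0.14 to 1.14. In the OE genotype alone 15 were examined, with a median of 0.12, below all but 1 of the other 22 clusters, which ran from 0.0997 to 1.06. Both medians were below those of the other normal proximal tubule clusters, at 0.47 to 0.78 in the control and 0.59 to 0.92 in the OE genotype. The targets that passed the filter differed between clusters, so these medians rest on unlike sets of genes. Ccng1, cyclin G1, was at 0.241 and 1.36 without and with AAI in the control genotype and at 0.317 and 1.22 in the OE genotype. Mdm2, the ubiquitin ligase that limits p53, went from 0.858 to 1.61 and from 0.668 to 2.08, and Gdf15, a stress cytokine, from 0.0988 to 0.659 and from 0.112 to 0.659. Trp53inp1, Dglucy and Polk, the last a polymerase that copies past DNA adducts, were also higher. Cdkn1a, the cell cycle inhibitor p21, did not reach 0.5 in the control genotype and was named after its values were seen: 0.0035 and 0.389 in the control genotype and 0.0137 and 0.556 in the OE genotype. In the other 22 clusters Ccng1 was higher by at least 0.2 with AAI in 22 in both genotypes, and Cdkn1a in 21, so these differences were not particular to PT-S1-S2-1.

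Immediate early genes were higher as well, 5 of 9 examined. Egr1 was at 0.945 and 2.46 in the control genotype and at 0.365 and 2.97 in the OE genotype, and Junb, Zfp36, Errfi1 and Zfp36l1 were also called. Egr1, Junb and Zfp36 were below 0.5 without AAI in at least 1 genotype and so passed the filter through the mice with AAI. Over all 29 members with a value the median difference was 0.07 in the control and 0.11 in the OE genotype. Klf6, the mouse gene, was at 0.28 and 0.535 and at 0.178 and 0.447, and it was not examined in both genotypes because it stayed below 0.5 in the OE genotype. Polr2a, the large subunit of RNA polymerase II, differed by 0.35 and 0.17 and was not called in both. Of the 42 injury markers, 10 were examined and only Bcl2l1 and Gdf15 were called higher. The injury markers Havcr1 and Lcn2 reached at most 0.0293 and 0.0155 in the 4 columns.

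Among the 10 leading genes, the sulfate carrier Slc13a1 was at 16.6 and 33.8 in the control genotype and at 10.8 and 30.4 in the OE genotype. Ppara went from 7.98 to 16.5 and from 6.17 to 11.8. Chd9, a chromatin remodeller, differed by 2.76 and 0.75, with uninjured levels of 2.28 in control and 6.99 in OE. Gria3, Cep85, Aspa, Exoc4 and the glycerol kinase gene Gk were each higher by at least 0.67. Proximal tubule genes did not move as a group. Cubn, Slc2a2, Alpl, Hsd3b2 and Slc4a4 were higher in both genotypes, while none of 17 amino acid transporters was called in either direction. Clock genes divided, with Tef, Per1, Nr1d2, Dbp and Hlf higher and Rora lower.

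Glutathione and NRF2 targets were lower in 7 of 19 examined and higher in none. Of the 7, 6 stayed above 0.5 with AAI in both genotypes, and Gsta2 was the exception. The median of this list was also below 0 in 13 of the other 22 clusters in the control and in 19 in the OE genotype. Gsta2, a glutathione transferase, was at 1.52 and 0.377 in the control genotype and at 0.991 and 0.11 in the OE genotype, and Gclc and Gclm, the subunits that start glutathione synthesis, differed by -0.62 and -0.33 and by -0.35 and -0.36. Of 18 organic anion and cation transporters 5 were lower, with Slc22a12, the urate carrier, at 1.01 and 0.242 and at 1.48 and 0.176. Slc22a12 was below 0.5 with AAI and so passed the filter through the uninjured mice, while the other 4 stayed above 0.5. Over all 28 members with a value the median difference was -0.05 in both genotypes. Abcc4, an export pump, went from 6.52 to 2.21 and from 3.36 to 1.87. Miox, the tubule enzyme that breaks down inositol, went from 10.5 to 5.01 and from 11 to 3.70. Hnf4a differed by -0.21 in both genotypes, close to the limit of 0.2.

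Of 11 mitochondrially encoded genes 10 were lower, with medians of -0.34 and -0.97. mt-Atp6 was at 34.8, 18.5, 50.8 and 15 in the Control, Control_AAI, OE and OE_AAI mice. These genes made up 2.23% of the column in the Control, 1.59% in the Control_AAI, 3.16% in the OE and 1.43% in the OE_AAI mouse. Their median was also below 0 in 21 of the other 22 clusters in the control genotype and in 22 in the OE genotype.

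The genotypes disagreed for genes of the ribosome and of oxidative phosphorylation. In the control genotype 15 of 37 ribosomal protein genes were higher with AAI and none was lower, whereas in the OE genotype 41 of 48 were lower and none was higher. Nuclear genes of oxidative phosphorylation had medians of 0.07 and -0.33, with 53 of 63 lower in the OE genotype. Ribosomal protein genes made up 0.324% of the column in the Control, 0.415% in the Control_AAI, 0.546% in the OE and 0.331% in the OE_AAI mouse, so the uninjured OE mouse was highest. The median of this list was above 0 in the uninjured OE mouse against the Control mouse in each of the other 22 clusters, at 0.25 to 0.64. What a difference between libraries adds to these genes was not tested.

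**Figure D4:**
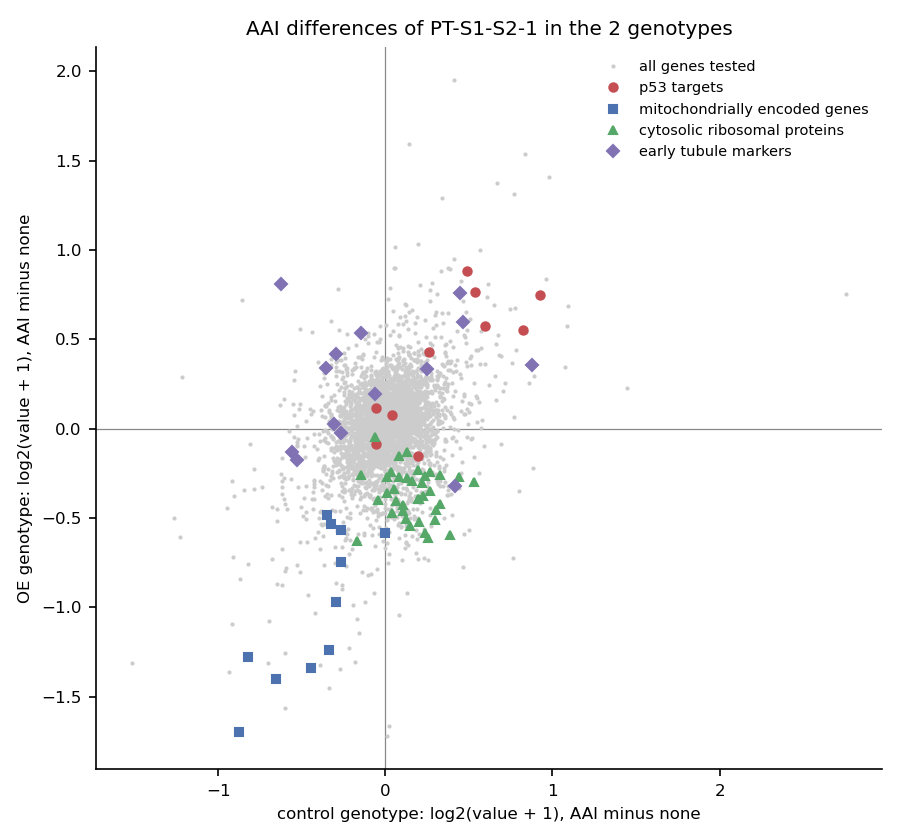
Difference of log2(value + 1) between AAI and no injury in PT-S1-S2-1, control genotype on the horizontal and OE genotype on the vertical axis, for all 3873 genes examined in both, with 4 gene lists marked. The p53 targets that were called lie in the upper right, 10 of 11 mitochondrially encoded genes in the lower left, and ribosomal protein genes mostly in the lower right.

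The AAI difference of PT-S1-S2-1 was then set beside that of PT-S1-S2-2 in the same mice. Of 4102 genes examined, the difference was higher in PT-S1-S2-1 by at least 0.2 in both genotypes for 54 (1.32%) and lower for 85 (2.07%). Among 12 p53 targets 3 were lower, Mdm2 (-0.42 and -0.47), Polk and Gdf15, and none was higher. Mdm2 in PT-S1-S2-2 went from 0.889 to 2.54 and from 0.883 to 3.83, above the levels with AAI in PT-S1-S2-1. The first genes with higher differences were the unnamed transcripts Gm42397 (0.99 and 1.68) and 4930533I22Rik (1.02 and 0.93), followed by Fhit. Gm42397 was not raised by AAI in PT-S1-S2-1. It led the genes that were lower there in both genotypes, at -1.51 and -1.31, and fell further in PT-S1-S2-2. Fhit (chromosome 14), a dinucleotide hydrolase gene that spans 1612 kb, was at 22.7 and 24.8 and at 17 and 28.0 in PT-S1-S2-1, against 18 and 11.6 and 13.5 and 11.7 in PT-S1-S2-2. In the other 22 clusters Fhit was lower with AAI by at least 0.2 in 20 in the control genotype and in 19 in the OE genotype. Wwox, an oxidoreductase gene that spans 913 kb, was lower with AAI in both clusters, with differences of -0.65 and -0.52 in PT-S1-S2-1 that were less deep than in PT-S1-S2-2 by 0.64 and 0.76. Abcc4, Gas6, Gsta2, Gm42418 and Slc7a8 led the genes with lower differences in PT-S1-S2-1. Gsta2 without injury was at 1.52 and 0.991 in PT-S1-S2-1 and at 0.332 and 0.207 in PT-S1-S2-2.

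Gene length moved with several of these calls. Genes spanning over 100 kb in the GENCODE annotation were 28.0% of those examined in both genotypes, 38.6% of those higher and 27% of those lower with AAI. Genes under 30 kb were 29.6% of those examined, 19.3% of those higher and 50.6% of those lower. The genotypes differed in this, since genes under 30 kb were 37.8% of those higher and 35.2% of those lower in the control genotype alone, of 30.7% examined, and 13.6% and 67.1% in the OE genotype alone, of 31.3%. Among the 52 genes with a length whose AAI difference was higher than in PT-S1-S2-2, 51.9% spanned over 100 kb, against 27.6% of those examined. The part of gene length in the calls was not tested.

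OE was compared with control genotype to describe the human KLF6 transgene, which has no row of its own in the table. Without AAI 471 of 4166 genes were higher in OE (11.31%) and 446 lower (10.7%), and with AAI 364 of 3996 were higher (9.11%) and 494 lower (12.4%). In both states together 30 of 3785 genes were higher (0.793%) and 93 lower (2.46%). Mouse Klf6 was at 0.28 in control and 0.178 in OE without AAI and at 0.535 and 0.447 with AAI, so it was not higher in OE in either state.

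Pck1 (chromosome 2), the first committed enzyme of glucose production, led the genes that were higher in OE. It was at 3.63 in the Control and 4.04 in the Control_AAI mouse and at 11 in the OE and 12.3 in the OE_AAI mouse, and the genotypes did not overlap. In each of the other 22 clusters Pck1 was also higher in OE by at least 0.2 in both states. G6pc, at the other end of that pathway, was lower, with differences of -0.86 and -0.24, and the sorbitol dehydrogenase gene Sord differed by -0.33 in both states. Pcdh7 and Dnajc13 were also higher. Neat1, a nuclear retained RNA, was higher by 0.29 and 0.71.

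Clec2h (chromosome 6), a C-type lectin gene that was highest in PT-S1-S2-1 among the 23 clusters in all 4 mice, was the gene that was lowest in OE. It was at 10.7 in the Control and 5.23 in the Control_AAI mouse, against 2.24 in the OE and 1.5 in the OE_AAI mouse. It was lower by at least 0.2 in 22 of the other 22 clusters without AAI and in 18 with AAI. The potassium channel gene Kcnj2 was at 1.74 and 1.24 in control and at 0.527 and 0.0261 in OE. Cyp24a1, which breaks down active vitamin D, was at 1.52 and 2.35 in control and at 0.259 and 1.43 in OE. Ctnna2, Aspa and the carboxylesterase gene Ces1d were lower, at -0.78 to -0.62.

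Some genes that were higher here than the mean of the other 22 clusters were lower in OE. Among them, Nr1h4 was lower here than in PT-S1-S2-2. The OE differences of these genes in the other clusters are not reported here. Of 22 transcription factors examined, Bnc2, Ppara and Nr1h4 were lower and none was higher. Dab2 was at 53.8 and 57.6 in control and at 35.5 and 42.7 in OE. Slc4a4 was the one early tubule marker of 14 lower in both states, at -0.36 and -0.28. Without AAI alone 10 early markers were lower and 1 was higher, whereas with AAI 2 were lower and 2 higher. The 2 states were thus unlike for most markers, and each rested on 1 mouse for each genotype.

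Without AAI, mitochondrially encoded genes were higher in OE in 11 of 11, ribosomal protein genes in 40 of 47 and nuclear genes of oxidative phosphorylation in 51 of 63. With AAI the counts were 1 of 11, 1 of 38 and 3 of 53, and 5, 15 and 8 were lower. Genes under 30 kb were 73.3% of those higher without AAI, against 31.9% of those examined, whereas with AAI they were 16.2% of those higher and 52.1% of those lower, against 29.4%. The share of genes listed at 0 was 21.8%, 25.2%, 21.5% and 21% in the Control, Control_AAI, OE and OE_AAI columns. The number of nuclei and their counts, which bear on this share, are unknown. The same lists were higher in the uninjured OE mouse in nearly every other cluster, with ribosomal medians above 0 in 22 and mitochondrial medians in 21 of the other 22. The genotype and the library cannot be told apart here.

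**Figure D5:**
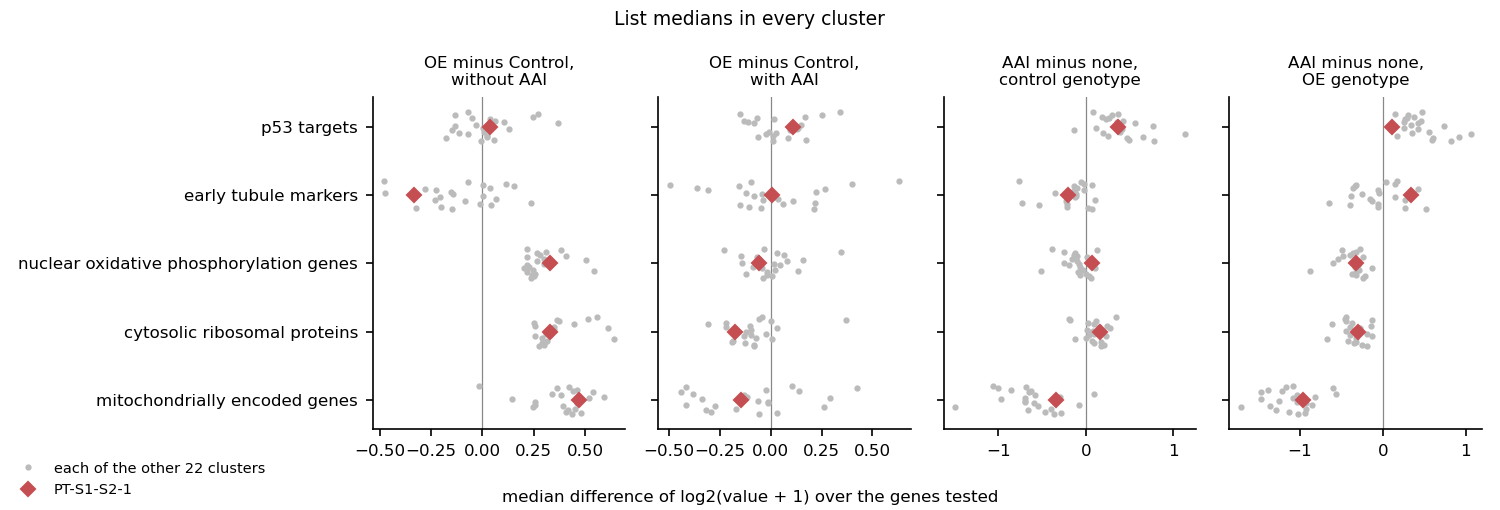
Median difference of log2(value + 1) of 5 gene lists for the 4 contrasts, with PT-S1-S2-1 as a diamond and each of the other 22 clusters as a grey point. Ribosomal medians without AAI lay between 0.25 and 0.64 in the other clusters, and PT-S1-S2-1 lay within the spread of the other clusters for each list and contrast.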

How the data were processed

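Single-nucleus libraries of kidney cortex from 4 mice, 1 per condition, were made in 1 batch. According to the study's methods, reads were aligned to a mouse pre-mRNA reference (mm10) with Cell Ranger 3.1.0, nuclei with 200 to 6000 genes and at most 10% mitochondrial counts were kept, and clusters were made in Seurat 4.3.0. The authors deposited a signal per gene, cluster and mouse: the mean over nuclei of counts per 10000, on a linear scale, each column summing to 10000. Nuclei numbers are not in it. Cluster names follow the order of the study's marker tables, and are less sure beyond the first few clusters.

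Of 19632 rows, 23 whose names had been turned into dates were left out, and 19609 were used, with Python 3.11.15 and pandas 2.3.3. Differences of log2(value + 1) were taken with the filter and threshold given in the text. Because each condition is 1 mouse, no test was run, and the values say nothing of the spread between mice. For each comparison the text names the 10 genes with the largest difference held in every mouse or pair in each direction, up to 5 members of each of 34 gene lists chosen the same way, and Slc5a12, Slc5a2, Klf6 and Polr2a. Any gene named outside this rule was picked with its values known, and a few genes that the rule names are not reported here. The members and lists were chosen with earlier results of these data known. The comparison of AAI differences between the 2 early clusters was added after the data were seen. The calling step was tested on simulated data. Gene positions and lengths are those of GENCODE vM21 (GRCm38). Alternatives changed the pseudocount, the filter, the threshold, the centring, the reference and the genes included, or left out 1 mouse.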

Additional observations from a re-analysis of the deposited data

Results flagged for a closer look

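The median AAI difference of the early tubule markers had opposite signs in the 2 genotypes, although 7 of the 14 markers had the same sign in both. Each direction is that of 1 mouse against 1 mouse, and the difference between genotypes was not tested. The median of the 14 markers was -0.21 in the control genotype and 0.34 in the OE genotype, 0.54 apart. This was not particular to PT-S1-S2-1, as MC had -0.15 and 0.33 and DCT_CNT had -0.12 and 0.43. PT-S1-S2-2 had 0.03 and 0.26, without a change of sign. Among the other 22 clusters the median was above 0 in 4 in the control genotype and in 9 in the OE genotype. Slc16a14, a monocarboxylate carrier gene, was at 8.60 and 5.23 without and with AAI in the control genotype and at 4.15 and 8.05 in the OE genotype, and its differences were 1.43 apart. Lrp2 differed by -0.30 and 0.42, which were 0.71 apart, and Col27a1 by -0.35 and 0.34, which were 0.69 apart. Slc5a12 went the other way, with 0.42 in the control and -0.32 in the OE genotype, or -0.74 for OE minus control. The uninjured OE mouse enters each of the OE differences. It was lower than the Control mouse by 0.2 or more for 10 of the 14 markers. Its mitochondrially encoded share was higher, at 3.16% against 2.23%. The part of that library in these differences was not tested.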

How the results depend on the processing

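No paired analysis was possible because each condition is 1 mouse and no replicate numbers pair mice. With 1 mouse per condition and no nuclei numbers, neither depth nor spread limits can be given. Counts below are genes higher and lower. Against the other 22 clusters they were 299 and 177 at a minimum of 2, 225 and 343 at a threshold of 0.5, 1044 lower with no filter, 235 lower against the median cluster and 399 lower against the other normal proximal tubule clusters, and leaving out 1 mouse gave 620 to 637 and 692 to 776. Against PT-S1-S2-2 they were 314 and 220 with a pseudocount of 0.1, 73 and 74 at a minimum of 2 and 26 and 29 at a threshold of 0.5, and leaving out 1 mouse gave 156 to 220 and 157 to 187. For AAI they were 407 and 393, 116 and 82, and 23 and 24 under the same 3 settings. For OE they were 130 and 194 with a pseudocount of 0.1, 10 higher at a minimum of 2, and 3 and 10 at a threshold of 0.5. A stricter minimum or threshold admits fewer genes by construction. In the same way, no filter, a smaller pseudocount or 1 mouse left out can only admit more. The cause of the changes with another reference was not tested. Centring and leaving out mitochondrially encoded genes kept each of these 4 pairs of counts within 1.5 times, as did leaving out ribosomal and oxidative phosphorylation genes too for AAI and OE, an alternative chosen after seeing the data.

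Of 1431 recomputed values of named genes, 1300 were still called, 123 kept their sign but were no longer called, and 8 changed sign. At a threshold of 0.5, 33 named genes lost their call for AAI and 20 kept it, and 15 lost it for OE and 8 kept it. Against the other normal proximal tubule clusters 9 lost their call and 30 kept it. The 8 changes of sign were all against the other clusters. Slco1a6 became 0.14 and Tfcp2l1 0.064 against the median cluster, and Slco1a6 0.16 against clusters outside the proximal tubule. Against the other normal proximal tubule clusters Esrrb became 0.10, Nr3c2 0.60, Tfcp2l1 0.63, Lrp2 -0.26 and Slc5a11 -0.021.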
